A study of Rattus norvegicus with 8 samples.

Results

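The major histocompatibility complex (MHC) of the rat, called RT1, and its antigen presentation partners were followed in the hypothalamus of 8 lactating Wistar dams on postpartum day 7. The members are the array probes whose gene name starts with RT1- or is Tap1, Tap2, B2m, Cd74 or Psmb9. The rule uses names alone and no measured value. It found 60 of the 30367 non-control probes, for 49 of 26269 gene names. By the array's own descriptions 44 probes belong to class I (35 genes, of which 15 probes are annotated class Ib and 3 class Ia) and 11 to class II (9 genes). The other 5 probes measure the 5 single genes.

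MHC class I molecules pair a heavy chain with beta-2-microglobulin (B2m) and show peptides cut by the proteasome and carried into the endoplasmic reticulum by the Tap1 and Tap2 transporter. Class II molecules are alpha and beta chain pairs, RT1-B and RT1-D in the rat, that assemble on the invariant chain Cd74 and receive peptides with the help of RT1-DM in professional antigen-presenting cells. In the brain, class II is known from microglia, macrophages at vessels and in the meninges, and dendritic cells, while class I is made more widely, including in endothelium and some neurons. Rat RT1 genes differ in sequence and in number between haplotypes, and Wistar rats are an outbred stock.

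Tissue came from 4 dams exposed to TCDD, a dioxin that binds the aryl hydrocarbon receptor, and from 4 control dams. All 8 animals share the strain, the lactating state and the postpartum day. The sources used here do not state the dose, route or time of exposure, or the dams' RT1 haplotypes. Each dam's RNA was read on 1 array in 1 colour. The 4 TCDD arrays lay on 1 slide and the 4 control arrays on another, so slide and exposure cannot be told apart in any comparison of the groups. The share of probes rated well above background by the scanner software ran from 61.7% (TCDD replicate 1) to 66.7%. The tissue label was checked on 12 hypothalamic neuron genes. Of these, 11 passed the filter, among them Pmch, the precursor of melanin-concentrating hormone, at 6.36 to 6.61 on the TCDD arrays and 6.37 to 6.54 on the control arrays. Otp was not well above background in any dam.

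Values are log2 of the processed spot signal relative to the array's 75th percentile, so 0 marks that percentile. A level of one probe is not set against the level of another. A probe entered the test when each array of 1 group, or of both, read it well above background. That holds for 19102 probes, 40 of them members, and the 20 members left out are given by their values alone. The difference is TCDD minus control on the log2 scale, with its standard error (SE), from limma with Benjamini-Hochberg adjustment over all tested probes. Each member probe is a single spot of 60 bases.

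The following probes of class II genes are shown because large differences between dams concern RT1-Bb and RT1-Db1, while RT1-DMa and RT1-DMb hardly differed. On rat build rn4 they lie at chr20:4732187-4732246, chr20:4672665-4672724, chr20:4844372-4844431 and chr20:4830313-4830372, all on the minus strand, and none shared 30 or more aligned bases with another RT1 probe.
RT1-Bb A_64_P043911: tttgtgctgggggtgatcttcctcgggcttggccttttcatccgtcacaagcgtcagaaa
RT1-Db1 A_64_P130578: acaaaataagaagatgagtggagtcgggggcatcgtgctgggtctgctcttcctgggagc
RT1-DMa A_64_P128478: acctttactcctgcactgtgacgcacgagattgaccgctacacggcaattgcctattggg
RT1-DMb A_64_P062110: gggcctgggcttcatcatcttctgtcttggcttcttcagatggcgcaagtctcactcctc

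Class I probes are less specific. Among all pairs of RT1 probes, 16 pairs had at least 30 identical bases in a gapless alignment of at least 20 bases and 80% identity, all between class I probes, and 15 class I probes took part. By the array's annotation, 8 class I probes list transcripts of 2 or more RefSeq genes. The RT1-CE5 and RT1-S2 probes lie on rn4 at chr20:3510942-3511001 (minus strand) and chr20:2795080-2795139 (plus strand). Capitals mark the 43 bases they share without a break. The RT1-A1 and RT1-CE11 probes, at chr20:5059134-5059193 and position 133569 to 133628 of the unplaced part of chromosome 20 (both plus strand), share 53 of 60 bases, with the longest unbroken run of 16 in capitals. The RT1-N2 probe at chr20:2787802-2787861 (plus strand) is shown because it had the smallest p of all members.
RT1-CE5 A_64_P090475: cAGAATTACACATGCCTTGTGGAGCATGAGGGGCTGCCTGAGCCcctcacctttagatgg
RT1-S2 A_64_P057222: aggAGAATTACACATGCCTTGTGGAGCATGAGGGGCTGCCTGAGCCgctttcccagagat
RT1-A1 A_64_P032913: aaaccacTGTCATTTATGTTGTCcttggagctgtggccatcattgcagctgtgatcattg
RT1-CE11 A_64_P091038: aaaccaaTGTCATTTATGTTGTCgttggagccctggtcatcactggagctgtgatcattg
RT1-N2 A_64_P057281: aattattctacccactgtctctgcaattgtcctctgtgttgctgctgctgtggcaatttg

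Values of such pairs can hold signal of related transcripts, and how much each transcript adds was not tested. The RT1-N1 and RT1-N3 probes had 51 identical bases of 58 aligned, and the longest run that both hold, 19 bases, is printed here.
RT1-N1 and RT1-N3 shared run: tacagaactcatctaggat

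Promoters are shown for the class II genes that differed together between dams, and for 2 comparators. RefSeq sequences of build GRCr8 (250 bases before to 50 after the start) were found for 40 of the 49 gene names. The letters CTGATTGG, known as the Y box of class II promoters and read by the NF-Y factor, were searched on both strands. On the gene's own strand they stood in 6 of 8 class II promoters (RT1-Da, RT1-Db1, RT1-Ba, RT1-Bb, RT1-DOa and RT1-Ha), in 0 of 27 class I promoters, in 1 of 5 single genes (Psmb9), and in 1.83% of all 33469 promoters. Cd74, whose order of dams was like that of the class II chains, had them on neither strand. On the opposite strand, as CCAATCAG, they stood in 11 of 27 class I promoters, in 0 of 8 class II promoters and in 1.77% of all promoters. Either strand counts 3.5% of all promoters. The stretches shown are the 120 bases before the start of RT1-Da (chr20:4515295-4515414, plus strand), RT1-Db1 (chr20:4560163-4560282, minus), RT1-Bb (chr20:4604119-4604238, minus), RT1-DMa (chr20:4712336-4712455, minus) and RT1-A2 (chr20:4872751-4872870, plus). Capitals mark the letters found, which begin 52, 83, 64, 66 and 56 bases before the start in that order. RT1-DMa holds only the shorter TGATTGG, and RT1-A2 holds the opposite-strand form.
RT1-Da promoter: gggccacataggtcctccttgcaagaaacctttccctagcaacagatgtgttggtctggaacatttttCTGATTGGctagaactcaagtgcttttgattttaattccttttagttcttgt
RT1-Db1 promoter: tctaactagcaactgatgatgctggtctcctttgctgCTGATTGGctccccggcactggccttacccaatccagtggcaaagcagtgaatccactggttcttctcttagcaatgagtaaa
RT1-Bb promoter: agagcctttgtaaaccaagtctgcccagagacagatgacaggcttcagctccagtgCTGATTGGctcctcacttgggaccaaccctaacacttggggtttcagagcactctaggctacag
RT1-DMa promoter: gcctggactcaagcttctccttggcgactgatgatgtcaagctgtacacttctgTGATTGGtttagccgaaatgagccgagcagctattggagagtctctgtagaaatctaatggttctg
RT1-A2 promoter: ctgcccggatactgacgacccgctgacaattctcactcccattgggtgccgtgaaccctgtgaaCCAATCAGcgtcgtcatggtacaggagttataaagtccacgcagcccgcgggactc

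RT1-Ba and RT1-DOa, whose promoters also hold these letters, were not well above background in any dam.

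No member passed the test between TCDD and control dams. At an adjusted p under 0.05, 0 of the 40 tested members were called, against 4 of all 19102 probes (0.0209%), and the smallest member adjusted p was 0.191, for RT1-N2. An unadjusted p under 0.05 was reached by 2 members that were higher in TCDD dams, where 7.49% of all tested probes were, and by 3 that were lower, where 3.03% were. Of the 2 higher members, RT1-N1 entered the test through its TCDD arrays alone. In 1 member all TCDD dams were above all control dams (RT1-N2; 4.97% of all tested probes) and in 1 all were below (RT1-T18; 1.88%). In whole hypothalamus, fewer cells of a type and less RNA per cell cannot be told apart in any of these values.

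On the tested RT1-Bb, RT1-Db1 and Cd74 probes the highest dam was 4.62-fold to 9.76-fold above the lowest, and the same 2 dams, 1 of each group, were highest on all 5. The RT1-Bb (class II beta chain) probe printed above was at -4.66, -2.91, -5.12 and -4.20 in the 4 TCDD dams, against -4.71, -4.42, -4.33 and -3.13 in the 4 control dams. A second RT1-Bb probe, A_44_P552452, was at -4.67, -1.38, -3.66 and -2.86 in TCDD dams, against -3.47, -3.21, -2.82 and -1.84 in control dams. TCDD replicate 2 and control replicate 4 were the highest arrays on both probes, and the groups overlapped.

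The RT1-Db1 (RT1-D beta chain) probe printed above was at -3.83, -2.06, -4.13 and -3.64 in the 4 TCDD dams, against -4.47, -3.86, -3.33 and -2.30 in the 4 control dams. The other RT1-Db1 probe, A_64_P134927, was at -4.56, -1.51, -4.69 and -3.40 in TCDD dams, against -4.44, -3.59, -3.22 and -1.94 in control dams. Again TCDD replicate 2 came first and control replicate 4 next, while TCDD replicate 3 or control replicate 1 was lowest. RT1-Da, the RT1-D alpha chain, was at -5.87, -2.66, -6.03 and -4.37 in TCDD dams, against -5.67, -4.68, -4.18 and -2.89 in control dams. It was well above background on 2 TCDD arrays and 3 control arrays and was not tested. Cd74, the invariant chain that class II molecules assemble on, was at -3.03, -0.57, -3.44 and -2.53 in the 4 TCDD dams, against -3.00, -2.52, -1.98 and -0.72 in the 4 control dams. Its order of dams was that of the class II chains at the top, with TCDD replicate 2 and control replicate 4 far above TCDD replicates 1 and 3 and control replicate 1.

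The span from the lowest to the highest dam was 2.21 and 3.29 log2 units on the RT1-Bb probes, 2.41 and 3.17 on the RT1-Db1 probes, 3.37 on RT1-Da and 2.87 on Cd74. As folds these are 4.62, 9.76, 5.32, 9.02 and, for Cd74, 7.29. No fold is given for RT1-Da, which was not well above background on 3 of 8 arrays. Among all tested probes 2.06% spanned 2 log2 units or more, and 3.01% of the 2755 whose mean signal lay between that of the dimmest and the brightest tested probe of RT1-Bb and RT1-Db1. TCDD replicate 2 and control replicate 4 were the 2 highest arrays on 5 of 5 RT1-B and RT1-D chain probes above background on some array (RT1-Bb, RT1-Db1 and RT1-Da), and on 6.7% of all tested probes. The 2 dams were picked out on these same probes, so that share is a description and not a test. RT1-Da is not among the tested probes. These 2 arrays were also highest on every one of these chain probes and on Cd74 wherever they entered the quantile, median-scaled, background-corrected and deposited values. The spans of the 4 tested chain probes and Cd74 were smaller with the normexp background correction, at 1.19 to 2.26 log2 units against 2.21 to 3.29, and 2 of the 40 tested members then spanned 2 log2 units or more, against 6.

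**Figure D1:**
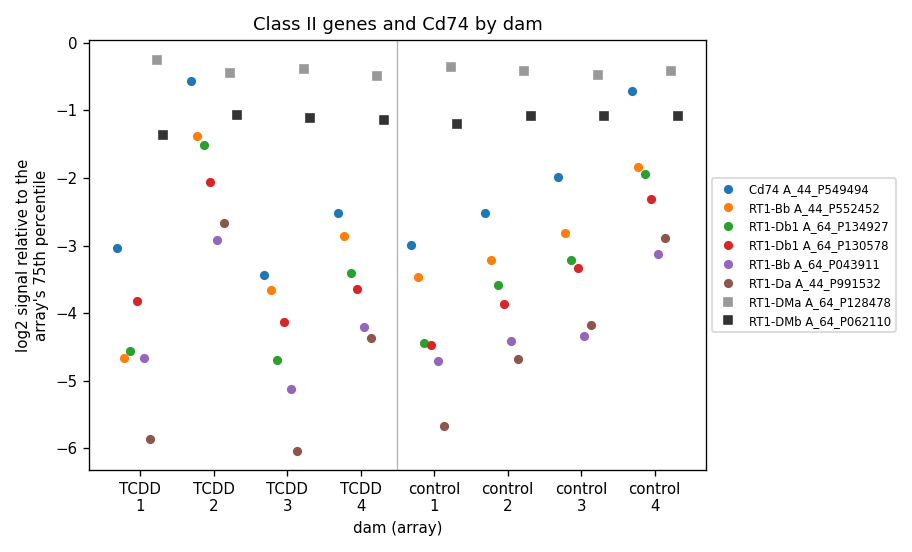
Log2 signal relative to the array's 75th percentile (y axis) of RT1-Bb, RT1-Db1, RT1-Da, Cd74, RT1-DMa and RT1-DMb in each dam (x axis, TCDD dams left and control dams right). Each point is 1 probe on 1 array. The coloured points are highest in TCDD replicate 2 and control replicate 4, while the grey and black RT1-DM squares span 0.24 and 0.30 log2 units.

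No group difference of these probes passed the test. RT1-Bb averaged -4.22 ± 0.95 in TCDD dams and -4.15 ± 0.70 in control dams (SD, n = 4 each) on the first probe, a difference of -0.08 (SE 0.51, adjusted p = 0.979). On its second probe the difference was -0.31 (SE 0.67, adjusted p = 0.925). RT1-Db1 differed by 0.08 (SE 0.56, adjusted p = 0.979) and -0.25 (SE 0.77, adjusted p = 0.954) on its 2 probes, and Cd74 by -0.34 (SE 0.69, adjusted p = 0.918). Each of these differences is smaller than the SD of either group. With single dams left out, Cd74 moved between -0.94 and 0.11, and the direction of all 4 chain probes turned for at least 1 dam.

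The class II chaperone did not share this pattern of dams. RT1-DMa, the alpha chain of the chaperone that exchanges peptides on class II, was at -0.25, -0.45, -0.38 and -0.49 in the 4 TCDD dams, against -0.37, -0.41, -0.48 and -0.43 in the 4 control dams. RT1-DMb, its beta chain, was at -1.37, -1.07, -1.12 and -1.15 in TCDD dams, against -1.21, -1.08, -1.08 and -1.09 in control dams. Both groups lay on top of each other, with spans of 0.24 and 0.30 log2 units and differences of 0.03 (SE 0.06, adjusted p = 0.931) and -0.06 (SE 0.07, adjusted p = 0.849). The remaining class II probes were at or near background. RT1-Ba (the RT1-B alpha chain), RT1-DOa and RT1-DOb (the chains of the DM modulator) were not well above background in any dam, at -8.60 to -6.13, and RT1-Ba read highest in TCDD replicate 3 and lowest in control replicate 4. RT1-Ha, described by the array only as class II, was well above background on TCDD replicate 4 alone, at -7.43, -8.62, -8.55 and -6.04 in TCDD dams, against -8.60, -8.82, -7.55 and -8.61 in control dams.

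Other cell types' markers also differed between these dams. The meningeal fibroblast list (10 of 10 genes tested, 11 probes) averaged -3.17, -0.55, -3.07 and -3.00 in TCDD dams, against -3.11, -1.85, -1.72 and -1.65 in control dams. The red blood cell list (5 of 8 genes tested, 9 probes) averaged 2.21, 3.38, 2.70 and 3.00 in TCDD dams, against 1.30, 1.29, 1.51 and 3.08 in control dams. TCDD replicate 2 was the highest array on both lists, and control replicate 4 was the highest control array on both. These 2 were the highest arrays on 7 of 11 meningeal fibroblast probes and on 5 of 9 red blood cell probes, against 6.7% of all tested probes. The order was not confined to such lists. It was seen on 4 of 15 hypothalamic neuron, 2 of 6 immunoproteasome and 2 of 10 class II processing probes. On the endothelium list it was seen on 0 of 9 probes, and on the T, B and dendritic cell list on 0 of 4. On the meningeal list control replicates 2 and 3 were near control replicate 4. The class II chains averaged -3.95, -3.57 and -2.42 in control replicates 2, 3 and 4. The choroid plexus list (6 of 10 genes tested, 6 probes) averaged -1.67, -1.41, -1.83 and -1.82 in TCDD dams, against -1.61, -1.74, -1.86 and -1.69 in control dams, so TCDD replicate 2 was its highest array while control replicate 4 came after control replicate 1 and TCDD replicate 1. Within that list 1 of 6 probes had TCDD replicate 2 and control replicate 4 on top, that of Ttr (transthyretin), while Otx2 and Enpp2 were lowest in control replicate 4 and Prlr in TCDD replicate 2. The part of these tissues in the class II values was not tested.

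The microglia and macrophage list (16 of 17 genes tested, 20 probes) averaged -0.93, -0.72, -0.84 and -0.94 in TCDD dams, against -0.86, -0.89, -0.81 and -0.69 in control dams, so its dams lay within 0.25 log2 units. TCDD replicate 2 and control replicate 4 were also the highest arrays of this list's mean. They were the 2 highest on 5 of its 20 tested probes (Ptprc, Cd68, Tyrobp, C1qb and C1qc), against 6.7% of all tested probes and 4 of 15 hypothalamic neuron probes. Cd163 and Lyve1, markers of macrophages at vessels and in the meninges, were highest in TCDD replicate 2, with spans of 1.98 and 1.58 log2 units. In both, control replicate 3 was above control replicate 4, and Cd163 was well above background on only 2 TCDD arrays. Other members of the list went otherwise. Trem2 was lowest in TCDD replicate 2 and Cx3cr1 in control replicate 4. Aif1 and P2ry12 were highest in TCDD replicate 4, and Tmem119 in TCDD replicate 3. The part of these cells in the class II values was not tested. Of 17 T, B and dendritic cell genes, 3 were tested (Cd3d, Cd8b and Flt3). Ms4a1, Cd79a, Cd79b, Cd3e, Cd4, Cd8a, Itgax, Clec9a and Xcr1 were not well above background in any dam. The 4 tested probes of that list averaged -4.21, -4.21, -4.37 and -4.10 in TCDD dams, against -4.66, -4.36, -4.33 and -4.37 in control dams.

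**Figure D2:**
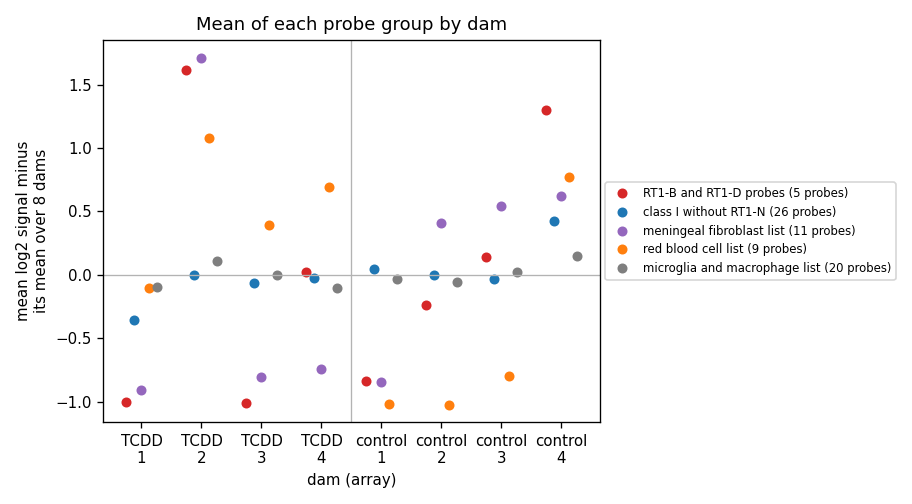
Mean log2 signal of 5 groups of probes in each dam, each minus its own mean over the 8 dams (y axis), for TCDD dams (left) and control dams (right). Each point is the mean of the probes named in the legend. The RT1-B and RT1-D probes are high in TCDD replicate 2 and control replicate 4. The red blood cell list is high in TCDD replicates 2, 3 and 4 and control replicate 4, and the microglia list spans 0.25 log2 units.

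No probe of the marker lists passed the adjusted test. For red blood cells 7 of 9 tested probes had an unadjusted p under 0.05, all higher in TCDD dams, where 7.49% of all tested probes were. Their differences ran from 0.69 for Hba-a2 to 1.49 for Alas2, with a smallest adjusted p of 0.366. The 9 probes cover only 5 genes, so they are not separate results. In the other marker lists, Kcne2 at 0.28 (adjusted p = 0.176) of choroid plexus and Trh at 0.29 (adjusted p = 0.457) of hypothalamic neurons had an unadjusted p under 0.05, both higher in TCDD dams. The smallest p elsewhere belonged to Trem2 at -0.27 (adjusted p = 0.608) and Itgam at -0.32 and -0.20 (adjusted p = 0.634 and 0.648) for microglia. For T, B and dendritic cells they belonged to Cd3d at 0.20 (adjusted p = 0.662), Flt3 at 0.26 (adjusted p = 0.668) and Cd8b at 0.37 (adjusted p = 0.709). For endothelium they were Pecam1 at 0.15 (adjusted p = 0.568), Flt1 at 0.18 (adjusted p = 0.6) and Vwf at 0.19 (adjusted p = 0.724), and for meningeal fibroblasts Slc6a20 at -0.71 (adjusted p = 0.798), Igf2 at -0.63 (adjusted p = 0.809) and Col1a2 at -0.54 (adjusted p = 0.851). Cd8b entered the test through its TCDD arrays alone and Slc6a20 through its control arrays alone. In each that was the higher group, so the values of Cd8b and Slc6a20 are descriptions only.

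Genes that process class II cargo or control class II transcription did not pass the adjusted test. Of the class II processing list (9 of 10 genes on the array, 10 probes tested), 8 probes had a higher mean in TCDD dams and 2 a lower one. Their median difference was 0.04, against 0.0016 over all tested probes, and none had an unadjusted p under 0.05. The smallest p-values were for March1 at 0.26 (adjusted p = 0.5) and for March8 on both probes, -0.10 and 0.09 (adjusted p = 0.613 and 0.662). March1 and March8 are ubiquitin ligases that remove class II from the cell surface. Ctss, the cathepsin that trims Cd74, was at 3.55, 3.59, 3.51 and 3.46 in TCDD dams, against 3.39, 3.45, 3.45 and 3.63 in control dams.

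Ciita, the master activator of class II genes, was not well above background in any dam. Of the 12 regulators listed, 8 genes (9 probes) were tested. Rfx5, a subunit of the RFX complex on class II promoters, was at -5.63, -6.02, -5.52 and -5.66 in TCDD dams, against -5.39, -5.03, -5.14 and -5.36 in control dams, a difference of -0.47 (SE 0.13, unadjusted p = 0.00514, adjusted p = 0.237). Nfyb, a subunit of NF-Y, differed by 0.63 (SE 0.17, unadjusted p = 0.0054, adjusted p = 0.239) on a dim probe and by -0.00 (SE 0.07, adjusted p = 0.994) on its other probe, so its 2 probes disagree. The dim probe was well above background on 4 TCDD and 3 control arrays, so it entered the test through the higher group alone. Its p and the size of its difference are therefore descriptions only. Neither Rfx5 nor Nfyb passed the adjusted test.

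Most class I means were lower in TCDD dams, and none passed the test. Of the 29 tested class I probes 24 were lower and 5 higher, where 49.4% of all tested probes were lower. Their median difference was -0.23, against 0.0016 over all tested probes. The differences ran from -0.36 for RT1-CE11 to 1.94 for RT1-N1. RT1-CE3, RT1-CE15 and RT1-CE5 on probe A_64_P090474, all counted as lower, entered the test through their control arrays alone. RT1-N1 entered through its TCDD arrays alone. Of the 25 class I probes well above background on all 8 arrays, 21 were lower, with a median difference of -0.205. Control replicate 4 was the highest array on 22 of 29 probes (12.4% of all tested probes) and TCDD replicate 1 the lowest on 19 (17.7%), and both held at once on 17 (3.3%). Both dams were picked out on these same probes, so the shares are descriptions and not tests. With quantile, median or background-corrected scaling or the deposited table, control replicate 4 was highest on 22 or 23 of the 29 probes and TCDD replicate 1 lowest on 16 to 18. The median was -0.12 without control replicate 4, -0.15 without TCDD replicate 1 and -0.05 without both (a choice made after seeing the data), when 19 of 29 probes were lower. TCDD replicate 1 also had the lowest share of probes above background, and its part in these values was not tested.

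RT1-A1, a class Ia heavy chain, was at 1.71, 2.11, 1.85 and 2.12 in the 4 TCDD dams, against 2.05, 2.06, 2.00 and 2.49 in the 4 control dams on probe A_64_P139202. Control replicate 4 was the highest dam and TCDD replicate 1 the lowest, and the other dams overlapped. The difference was -0.20 (SE 0.14, adjusted p = 0.684), and -0.31 (SE 0.15, adjusted p = 0.509) on the probe printed above. RT1-A2, the other class Ia gene, was at -1.33, -1.64, -1.91 and -1.75 in TCDD dams, against -1.84, -2.19, -1.90 and -1.35 in control dams. It was higher by 0.16 (SE 0.19, adjusted p = 0.834), with TCDD replicate 1 and control replicate 4 at the top.

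The RT1-CE genes are class I genes, 6 of them on the unplaced part of chromosome 20 in rn4. RT1-CE16 was at -0.18, 0.65, 0.38 and 0.50 in the 4 TCDD dams, against 0.61, 0.55, 0.52 and 1.00 in the 4 control dams. RT1-CE2 was at -0.19, 0.45, 0.25 and 0.32 in TCDD dams, against 0.61, 0.37, 0.25 and 0.81 in control dams on probe A_44_P107372. RT1-CE14 was at -0.39, -0.13, 0.01 and -0.19 in TCDD dams, against 0.16, -0.01, -0.35 and 0.50 in control dams. In all these genes control replicate 4 was highest, and TCDD replicate 1 lowest.

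RT1-CE5 was at -0.54, -0.43, -0.66 and -0.44 in the 4 TCDD dams, against -0.36, -0.46, -0.49 and -0.13 in the 4 control dams on the probe that it shares with other class I genes. RT1-CE7 was at -1.16, -1.18, -0.80 and -1.11 in TCDD dams, against -0.77, -0.81, -1.21 and -0.42 in control dams. RT1-CE11 was at -2.69, -2.12, -1.80 and -1.83 in TCDD dams, against -1.78, -1.82, -1.99 and -1.40 in control dams. TCDD replicate 1 was the lowest for RT1-CE11, TCDD replicate 3 for RT1-CE5 and control replicate 3 for RT1-CE7, so the low end was not the same dam throughout.

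RT1-CE13 was at -2.68, -2.37, -2.58 and -2.51 in the 4 TCDD dams, against -2.43, -2.48, -2.37 and -2.08 in the 4 control dams. RT1-CE4 was at -3.21, -2.96, -2.99 and -2.69 in TCDD dams, against -3.02, -2.99, -2.78 and -2.49 in control dams. RT1-CE3 was at -5.81, -4.36, -4.67 and -4.43 in TCDD dams, against -4.91, -4.54, -4.53 and -4.20 in control dams, and was not well above background on 1 TCDD array. In these 3 genes the groups overlapped, and the span was 0.60, 0.72 and 1.61 log2 units. RT1-CE15 was at -5.98, -5.32, -5.29 and -5.11 in the 4 TCDD dams, against -5.28, -5.39, -5.09 and -5.02 in the 4 control dams, with TCDD replicate 1 at the low end. The adjusted p of the RT1-CE probes ran from 0.57 (RT1-CE13) to 0.835 (RT1-CE3). The second probes of RT1-CE2 and RT1-CE5 differed by -0.19 and -0.32, the same direction as the first. That of RT1-CE5, A_64_P090474, was not well above background on TCDD replicate 1. This probe, RT1-CE3 and RT1-CE15 entered the test through their control arrays alone, the higher group. Their differences and p-values are therefore descriptions only.

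RT1-Cl and RT1-EC2, also class I, have no position on rn4. RT1-Cl was at -1.002, -0.64, -0.50 and -0.57 in the 4 TCDD dams, against -0.42, -0.45, -0.54 and -0.05 in the 4 control dams. RT1-EC2 was at -2.32, -2.11, -2.12 and -2.21 in TCDD dams, against -1.97, -2.12, -2.29 and -1.56 in control dams. Control replicate 4 was again the highest dam of both, with differences of -0.31 (SE 0.14, adjusted p = 0.494) and -0.20 (SE 0.15, adjusted p = 0.707).

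**Figure D3:**
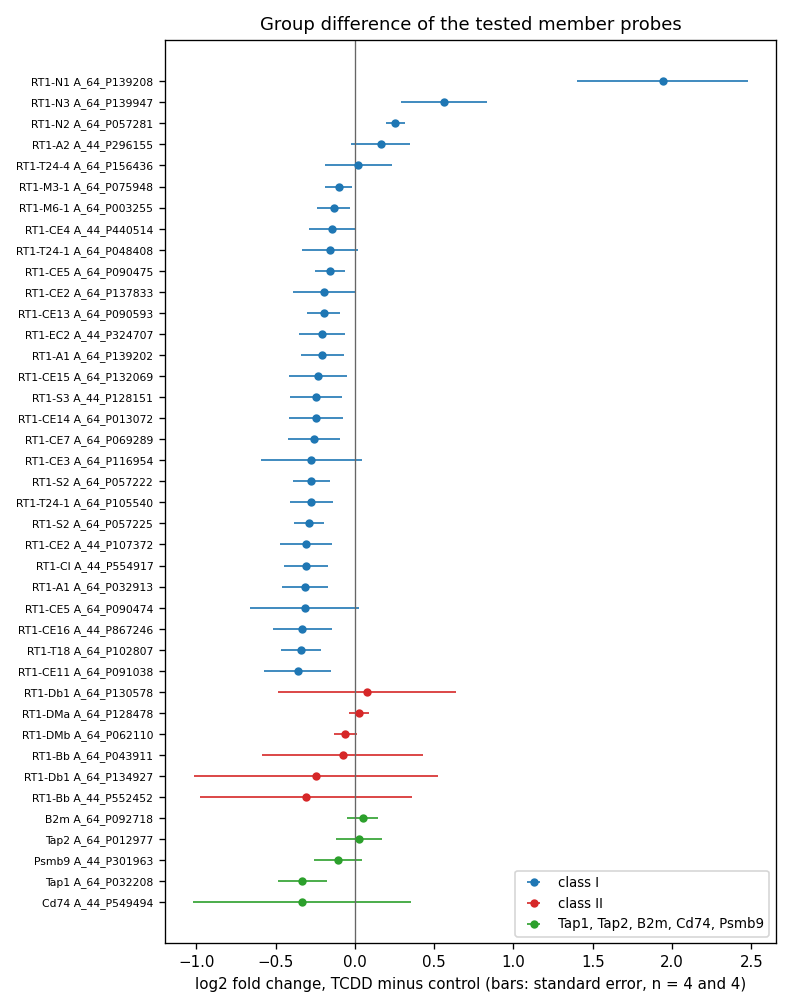
Log2 fold change (TCDD minus control, x axis) with its standard error for the 40 tested member probes, by class from top to bottom. Of the 29 class I points 24 lie left of 0, and the 3 RT1-N points lie right of it. The RT1-B, RT1-D, Cd74 and RT1-N1 points have the widest bars.

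Of the class Ib genes, RT1-S2 and RT1-T18 had an unadjusted p under 0.05 with lower values in TCDD dams, and neither passed the adjusted test. RT1-S2, a class Ib gene, was at 0.04, 0.39, 0.21 and 0.34 in the 4 TCDD dams, against 0.46, 0.40, 0.38 and 0.83 in the 4 control dams on the probe printed above, a difference of -0.27 (SE 0.12, unadjusted p = 0.0489, adjusted p = 0.473). Its other probe, A_64_P057225, was at -2.38, -2.12, -2.33 and -2.33 in TCDD dams, against -2.09, -1.98, -2.14 and -1.78 in control dams, a difference of -0.29 (SE 0.09, unadjusted p = 0.014, adjusted p = 0.318). Both probes were lower in TCDD dams by about the same amount, with a single TCDD dam reaching into the control range on each. Without control replicate 4 the differences were -0.17 on A_64_P057222 and -0.22 on A_64_P057225 (adjusted p = 0.526 and 0.351).

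RT1-T18 was at -1.37, -0.89, -1.001 and -0.99 in the 4 TCDD dams, against -0.70, -0.86, -0.84 and -0.49 in the 4 control dams. All 4 TCDD dams lay below all 4 control dams, with the nearest dams at -0.89 (TCDD replicate 2) and -0.86 (control replicate 2). The difference was -0.34 (SE 0.12, unadjusted p = 0.024, adjusted p = 0.375). The other 2 probes of RT1-T18 were not well above background in any dam, so a single probe carries this value.

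RT1-S3 was at -0.47, -0.46, -0.27 and -0.47 in the 4 TCDD dams, against -0.11, -0.19, -0.63 and 0.24 in the 4 control dams. RT1-T24-1 was at -1.17, -0.69, -0.92 and -0.89 in TCDD dams, against -0.65, -0.74, -0.85 and -0.32 in control dams on probe A_64_P105540. RT1-T24-4 was at -2.41, -2.94, -2.46 and -2.69 in TCDD dams, against -2.82, -2.76, -2.98 and -2.03 in control dams. The group means of RT1-T24-4 were level, with a difference of 0.02 (SE 0.21, adjusted p = 0.987).

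RT1-M6-1 was at -0.15, -0.20, -0.32 and -0.15 in TCDD dams, against -0.23, -0.18, -0.13 and 0.23 in control dams. RT1-M3-1, the rat counterpart of a mouse class Ib gene that presents formylated peptides, was at -0.49, -0.19, -0.22 and -0.32 in TCDD dams, against -0.30, -0.27, -0.04 and -0.19 in control dams. Neither differed by more than the spread between dams, at -0.13 (SE 0.10, adjusted p = 0.74) and -0.10 (SE 0.09, adjusted p = 0.761), and RT1-M3-1 had the narrowest span of the tested class I probes, 0.44 log2 units.

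The 3 RT1-N genes, class Ib, had higher means in TCDD dams, and none passed the adjusted test. They lie on rn4 at chr20:2788743-2788802 (RT1-N1), chr20:2787802-2787861 (RT1-N2) and chr20:2810020-2810079 (RT1-N3), all on the plus strand. RT1-N2 was at -1.15, -1.28, -1.33 and -1.23 in the 4 TCDD dams, against -1.45, -1.59, -1.45 and -1.52 in the 4 control dams. Every TCDD dam was above every control dam, and the means were -1.25 ± 0.08 in TCDD dams and -1.50 ± 0.07 in control dams (SD, n = 4 each). The difference was 0.25 (SE 0.06, unadjusted p = 0.00282, adjusted p = 0.191).

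RT1-N1 was at -3.71, -3.75, -6.09 and -4.08 in the 4 TCDD dams, against -7.01, -6.41, -5.67 and -6.30 in the 4 control dams. TCDD replicates 1, 2 and 4 stood well above every control dam, whereas TCDD replicate 3 lay among the controls. The probe was well above background on 4 TCDD arrays and 2 control arrays, so it entered the test through the higher group alone. Its p and the size of its difference are therefore descriptions only. The difference was 1.94 (SE 0.54, unadjusted p = 0.00668, adjusted p = 0.249), and 0.55 with the normexp background correction. RT1-N3 was at -3.75, -3.69, -4.56 and -3.13 in TCDD dams, against -4.41, -4.55, -4.04 and -4.39 in control dams, with TCDD replicate 4 the highest and TCDD replicate 3 the lowest of all dams. It differed by 0.56 (SE 0.27, unadjusted p = 0.0696, adjusted p = 0.522). These 3 readings are not independent, since the RT1-N1 probe lists an accession that RefSeq gives to RT1-N2 and shares bases with the RT1-N3 probe.

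**Figure D4:**
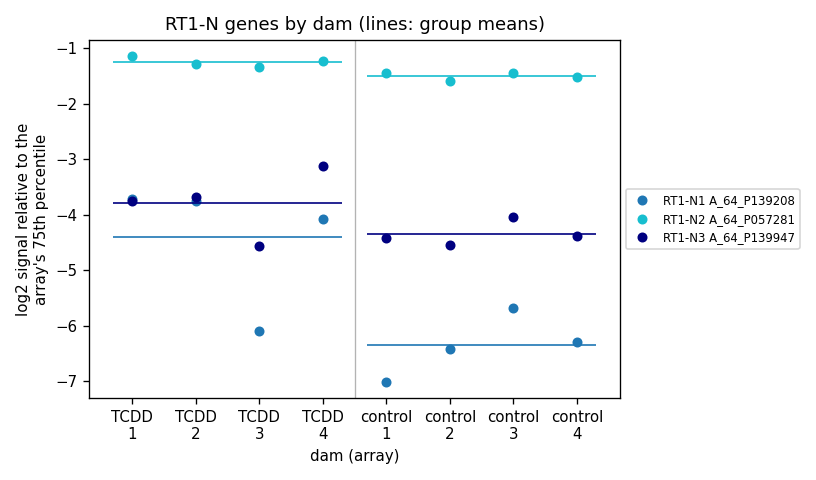
Log2 signal relative to the array's 75th percentile (y axis) of the 3 RT1-N probes in each dam (x axis, TCDD left, control right), with lines at the group means. RT1-N1 is at -3.71, -3.75 and -4.08 in 3 TCDD dams and at -6.09 in TCDD replicate 3, against -7.01 to -5.67 in control dams.

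Several dim class I probes were read in 1 or 2 dams only. RT1-M1-5, at chr20:1947335-1947394 (plus strand), was at -8.20, -3.92, -3.23 and -8.57 in the 4 TCDD dams, against -8.71, -8.89, -8.51 and -8.66 in the 4 control dams. TCDD replicates 2 and 3 were the 2 arrays of 8 on which it was well above background, the others being at background. Its TCDD mean was at least 1.32-fold higher than the control arrays, each set no lower than the faintest signal it read above background, with 2 of 4 TCDD arrays measured and no test. Its other probe was not well above background in any dam.

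RT1-CE6 was at -8.09, -5.84, -8.56 and -6.67 in TCDD dams, against -8.59, -8.83, -4.39 and -7.52 in control dams, well above background in TCDD replicate 2 and control replicate 3. RT1-M10-1 was at -7.95, -4.75, -8.40 and -8.33 in TCDD dams, against -8.56, -7.59, -8.33 and -8.40 in control dams, above background in TCDD replicate 2 alone. RT1-M2 was at -8.08, -8.65, -8.54 and -4.95 in TCDD dams, against -8.61, -8.82, -8.48 and -8.60 in control dams, above background in TCDD replicate 4 alone. TCDD replicate 2 was high for both RT1-CE6 and RT1-M10-1, TCDD replicate 4 for RT1-M2 and control replicate 3 for RT1-CE6.

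RT1-M5 was at -8.21, -8.71, -6.61 and -8.55 in TCDD dams, against -8.77, -5.27, -8.50 and -8.64 in control dams, above background in control replicate 2 alone. RT1-M1-2 was at -7.00, -8.61, -8.52 and -6.99 in TCDD dams, against -8.42, -8.76, -8.05 and -5.60 in control dams, above background in control replicate 4 alone. Of the 12 members that were above background on some arrays and not on others, 9 (75%) spanned 2 log2 units or more. Among all such probes on the array the share was 44.5%. The 9 class I probes that were not well above background in any dam were those of RT1-CE10, RT1-CE12, RT1-M1-4, RT1-M4, RT1-T24-2, a probe each of RT1-M1-5 and RT1-M6-1, and 2 probes of RT1-T18.

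**Figure D5:**
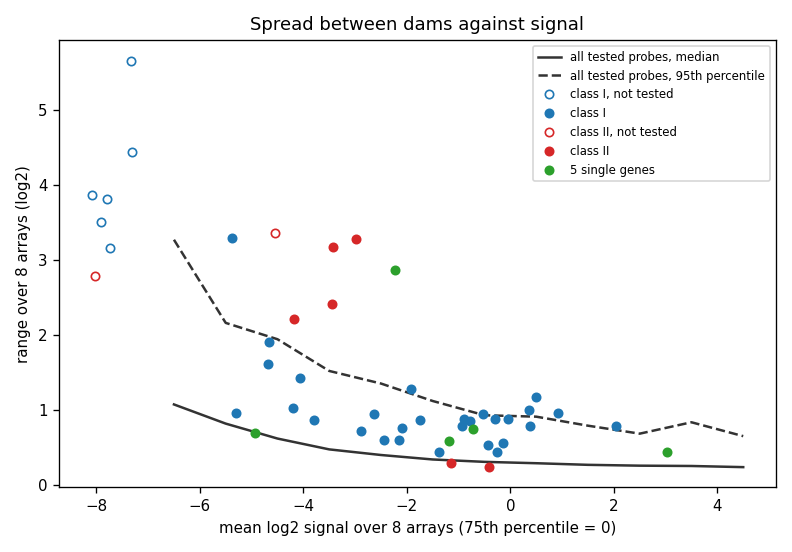
Range over the 8 arrays (log2 units, y axis) against mean log2 signal (x axis) for the 48 members above background on at least 1 array, coloured by class and open where not tested. Lines give the median and 95th percentile over all tested probes in bins of signal, and the RT1-B and RT1-D points lie above the upper line while the class II RT1-DM points lie near the median.

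The partners of class I differed little between groups. B2m, the light chain of every classical class I molecule, was at 2.96, 3.18, 3.03 and 3.05 in TCDD dams, against 2.84, 2.98, 2.93 and 3.28 in control dams. The groups overlapped, with a difference of 0.05 (SE 0.10, adjusted p = 0.917) and a span of 0.44 log2 units. Tap1, the first half-transporter of peptides, was at -5.15, -4.93, -5.25 and -5.08 in TCDD dams, against -4.56, -4.72, -5.25 and -4.56 in control dams. Its TCDD dams were at the low end together with control replicate 3, and the difference was -0.33 (SE 0.16, adjusted p = 0.512). Tap2, its partner, was at -1.44, -0.93, -1.21 and -1.13 in TCDD dams, against -1.40, -1.33, -1.24 and -0.85 in control dams, a difference of 0.03 (SE 0.14, adjusted p = 0.975). TCDD replicate 2 and control replicate 4 were the top arrays for Tap2 and B2m, and were not both so for Tap1.

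Psmb9, a catalytic subunit of the immunoproteasome, was at -0.70, -0.56, -1.005 and -0.81 in the 4 TCDD dams, against -0.67, -0.81, -0.91 and -0.26 in the 4 control dams. Control replicate 4 was highest, TCDD replicate 2 next and TCDD replicate 3 lowest, with a difference of -0.11 (SE 0.15, adjusted p = 0.875). Psmb8, another catalytic subunit, was the listed immunoproteasome gene with the smallest p, at -0.30 (adjusted p = 0.53), followed by Psme1 at 0.05 (adjusted p = 0.871) and Psme3 at -0.01 (adjusted p = 0.967). Psmb8 too was highest in control replicate 4, with TCDD replicate 2 next. Of the 6 genes listed 0 had an unadjusted p under 0.05. The constitutive subunits Psmb5 at -0.10 (adjusted p = 0.693), Psmb6 at 0.02 (adjusted p = 0.964) and Psmb7 at -0.02 (adjusted p = 0.966) did not pass the test either.

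Among 7 class I loading genes 6 were tested, and 5 were lower in TCDD dams with a median of -0.14. Calr, the chaperone calreticulin, was at 1.17, 1.15, 1.18 and 1.05 in TCDD dams, against 1.42, 1.25, 1.31 and 1.38 in control dams. All 4 TCDD dams were below all 4 control dams, and the difference was -0.20 (SE 0.06, unadjusted p = 0.00712, adjusted p = 0.255). Pdia3, its disulfide isomerase partner, differed by -0.17 (SE 0.06, unadjusted p = 0.0248, adjusted p = 0.378). Neither passed the adjusted test. In the class I-like genes outside the RT1 names 4 of 9 were tested and 0 had an unadjusted p under 0.05, the smallest being Hfe at 0.25 (adjusted p = 0.8), Mr1 at 0.36 (adjusted p = 0.925) and Cd1d1 at -0.06 (adjusted p = 0.943). TCDD replicate 2 and control replicate 4 were the 2 highest arrays on 3 of the 4 tested class I-like probes, against 6.7% of all tested probes.

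The 29 tested class I probes spanned a median of 0.87 log2 units over the 8 dams (0.44 to 3.29), and 8 of them 1 log2 unit or more. The 6 tested class II probes spanned a median of 2.31 (0.24 to 3.29), and 4 of them 2 or more. Over all tested probes the median span was 0.38, and 9.96% spanned 1 unit or more. The median group difference was -0.07 for class II and -0.23 for class I. The class II median was -0.45 without TCDD replicate 2, 0.12 without control replicate 4, 0.08 without TCDD replicate 1 and 0.08 without TCDD replicate 3, so its sign turned with single dams. The difference between the 2 classes was not tested.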

How the data were processed

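RNA of 8 hypothalami, 4 from TCDD dams and 4 from control dams, was labelled with Cy3 and hybridised to Agilent rat arrays, per the labels' protocols. The deposited scanner files hold each spot's intensity on a linear scale, background-subtracted per the file headers, which name version 10.7.1.1 of Agilent's Feature Extraction and place probes on rn4. Exons and UTRs were not looked up, for want of an rn4 annotation. The authors also deposited a table of normalized intensities, each column with a median of 65.1, which on the log2 scale had correlations of 0.999 or more with the scanner values. The sources used here do not state its scaling or centring.

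The main value was log2 of the processed signal minus the array's 75th percentile over non-control spots, without spots marked as outliers, and spots of a probe were averaged. The 2 groups were tested in limma 3.58.1 under R 4.3.3 by lmFit and eBayes with no covariate, 2-sided, at a threshold of 0.05. The number of arrays limits the precision. limma was tested on simulated data. Alternatives were normexp (offset 50), quantile and median scaling, the deposited table, other filters, 1 probe per gene, a trended variance, a replicate block and leaving out dams. Tables and figures were made with Python 3.11.15 and matplotlib 3.10.9.

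The members, gene lists, promoter letters and printed sequences were chosen with earlier results of these data known. Values in every dam are given for the 5 single genes, RT1 probes spanning 2 log2 units with an array above background or with an unadjusted p under 0.05, and the brightest probe of each RT1 gene above background on all arrays of a group. Listed genes are named at an unadjusted p under 0.05, or else the 3 of smallest p. RT1-Da, Ciita and Ctss were added for their role. Of the 60 member accessions 52 were found in a RefSeq table (GRCr8), used for names and promoters.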

Additional observations from a re-analysis of the deposited data

Results flagged for a closer look

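In a group of 4 dams, a dam counted as standing apart when its gap to the nearest other dam took up most of the group's range (Dixon's ratio at its 95% critical value). Among 96 groups of 4 (48 members above background on at least 1 array), 8 did so, where chance gives about 1 in 20. No explanation was tested for any of them.

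In TCDD dams, RT1-N1 was low in replicate 3, at -6.09 (ratio 0.846), and RT1-CE5 on probe A_64_P090474 was low in replicate 1, at -5.85 (ratio 0.878), where it was not well above background. RT1-S3 was high in replicate 3, at -0.27 (ratio 0.94), although the other TCDD dams lay within a narrow range. RT1-M10-1 was high in replicate 2, at -4.75 (ratio 0.878), and RT1-M2 in replicate 4, at -4.95 (ratio 0.848), each the single array above background for its probe.

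In control dams, RT1-A1 on probe A_64_P139202 was high in replicate 4, at 2.49 (ratio 0.878). RT1-DMb was low in replicate 1, at -1.21 (ratio 0.947), within a group that spanned little. RT1-M5 was high in replicate 2, at -5.27 (ratio 0.922), the single array above background for that probe.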

How the results depend on the processing

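Over 19 alternatives (2 of them chosen after seeing the data) the count of called members stayed at 0, with a smallest adjusted p of 0.165. The count over all probes, 4, was 19 with normexp, 35 with a trended variance, 0 without the filter, 0 with the replicate number as a block, 0 to 8 without 1 array, 0 without TCDD replicate 2 and control replicate 4, and 15 without TCDD replicate 1 and control replicate 4. Deviations of same-numbered dams correlated at 0.202, 0.013, -0.069 and 0.114. These values cannot show whether the replicate numbers pair the dams, which the main fit treated as unpaired. The class I median of -0.23 ranged from -0.27 to -0.12 without 1 array, and was -0.15 and -0.0483 without those 2 pairs of arrays. The count of 13 tested members spanning 2-fold or more was 7 with normexp (which also left 2, not 6, spanning 4-fold or more), 30 of 60 without the filter, 7 to 14 without 1 array, and 8 and 7 without the 2 pairs. Of 14 named probes, 6 never turned sign over these alternatives (RT1-N1, RT1-N2, both RT1-S2 probes, RT1-T18 and Tap1), although RT1-S2 on A_64_P057222 was -0.10 without TCDD replicate 1 and control replicate 4. The class II median of -0.07 ranged from -0.45 to 0.12 without 1 array. It was -0.13 without TCDD replicate 2 and control replicate 4, and 0.47 without TCDD replicate 1 and control replicate 4. Without 1 array, B2m ranged from -0.0061 to 0.14, Cd74 from -0.94 to 0.11, Psmb9 from -0.187 to 0.0296, Tap2 from -0.0576 to 0.14, RT1-Bb from -0.90 to 0.20 (A_44_P552452) and -0.51 to 0.26 (A_64_P043911), and RT1-Db1 from -0.38 to 0.47 (A_64_P130578) and -0.92 to 0.21 (A_64_P134927). Tap2 was -0.0085 with median scaling. Without TCDD replicate 1 and control replicate 4, B2m was 0.17, Tap2 0.23, Cd74 0.32, Psmb9 0.0064, RT1-Bb 0.53 and 0.41 and RT1-Db1 0.61 (A_64_P130578) and 0.55 (A_64_P134927). Without TCDD replicate 2 and control replicate 4, B2m was 0.10, Tap2 0.06, Cd74 -0.50 and Psmb9 -0.04. RT1-Bb was then -0.56 (A_44_P552452) and -0.17 (A_64_P043911), and RT1-Db1 0.02 (A_64_P130578) and -0.47 (A_64_P134927). The causes were not tested. Dim probes near background limit what can be read of RT1-N1, RT1-Da and the single-dam class I probes.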
